A study of Mus musculus with 18 samples.

Results

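Plasma membrane carriers of 4 solute carrier families take up or exchange amino acids and many small transmitters in brain: Slc1 (glutamate and neutral amino acids), Slc6 (GABA, glycine, monoamines, taurine, creatine and proline), Slc7 (cationic amino acids and the light chains of heteromeric exchangers) and Slc38 (glutamine and other neutral amino acids). Every probe set annotated to 1 gene symbol of these families was taken, which gave 113 of the 45037 probe sets tested. They belonged to 53 gene symbols. The symbols Slc6a19os and Slc7a6os, with 3 probe sets, name genes on the opposite strand and not transporters, so 110 probe sets of 51 transporter genes remained. A further probe set that names Slc1a2 together with another gene was left out.

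The samples were brains of BAC-transgenic mice on a C57BL/6J X DBA/2J background, in which the orexin (orx, gene Hcrt) coding sequence of the BAC was replaced by a flag-tagged rat poly(A) binding protein 1 followed by eGFP. The IP group (9 arrays) held polyA RNA crosslinked to the tagged protein and captured with anti-flag beads, and the WB group (9 arrays) held whole brain total RNA. Both groups carried the transgene, and no sample without it was analysed here, so RNA that bound the beads without the tagged protein was not measured apart. Expression of the tag follows the orexin regulatory sequence of the BAC, and brains were fixed with formaldehyde by perfusion before lysis. The labels give ages of 11 and 14 weeks without assigning them to samples. The labels do not say that each sample came from its own animal, so each p-value reflects how far these samples varied, and some of that variation may be technical.

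In astrocytes, uptake by Slc1a2 and Slc1a3 removes most synaptic glutamate, which is turned into glutamine and exported by Slc38a3. Neurons take glutamine back through Slc38a1 and related carriers, and recover GABA, glycine and monoamines with transporters at their own terminals. Slc7 light chains and Slc38 carriers also supply amino acids for protein synthesis in most cells, and several of them belong to the set of genes raised when amino acids are short.

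Hcrt, the defining transcript of orexin neurons, did not pass between the groups (difference 0.21, limma adjusted p = 0.568; summed intensity 73.8 to 490.6 in IP and 156 to 388 in WB). Among 6 neuronal markers 2 were higher and 4 lower in IP, and among 7 astrocyte markers 3 were higher and 4 lower. These counts are on the brightest probe set of each, where 21.7% of all genes were higher and 21.7% lower. Rbfox3, Aqp4, Gfap and Gja1 were counted as higher, but each had another probe set that was lower. Syt1 and Aldoc were counted as lower, but each had another that was higher. The summed intensity ranged from 61963 to 112447 in IP and 58082 to 75797 in WB for the neuronal markers, and from 35879 to 63259 and 23534 to 32352 for the astrocyte markers. The IP mean of the astrocyte marker Aldh1l1 (6.02) lay below the highest mean of the bacterial trpn control probe sets (6.31). The part of these markers in the transporter results was not tested. For oligodendrocytes, microglia, endothelium, meninges with choroid plexus, and red blood cells, 3 of 5, 2 of 6, 0 of 5, 1 of 5 and 0 of 2 measured markers were higher and 1, 3, 3, 0 and 1 were lower. The arrays of the IP group were also more variable and more 3′-weighted. The log2 signal of the 3′ Gapdh probe set exceeded that of the 5′ one by 3.33 to 5.45 in IP and by 1.33 to 1.78 in WB, and for the added bacterial lys transcript by 3.71 to 6.16 and 1.38 to 2.45. The position of each transporter probe set on its transcript was not used here, so the part of this gap in the results was not tested.

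With the deposited scaling, transporter signals were more often lower than higher in the immunoprecipitate. Of 110 transporter probe sets, 8 were higher and 45 lower in IP at adjusted p 0.05 (limma over all probe sets, with Benjamini-Hochberg adjustment), and 57 did not pass. Over all probe sets tested, 14.2% were higher and 30.8% lower. The median difference was -0.34 for the transporters and -0.23 for all probe sets (log2, IP minus WB). Past 2-fold as well, 4 were higher and 31 lower, against 7.72% and 21.9% of all probe sets. This balance depended on how arrays were scaled. Among called probe sets of the 113, the higher share was 14.5% as deposited, 29.8% after quantile normalization, 43.6% after median centring and 1.18% when arrays were scaled to their hybridization controls. Over all probe sets these shares were 31.6%, 52.3%, 60.6% and 4.04%, above those of the transporters under each scaling. The median over the transporters was -0.04, 0.09 and -1.28 under these 3 alternatives. Under all 4 scalings 29 of the 45 lower calls and 1 of the 8 higher calls were made in the same direction. Unless another scaling is named, a gene said below to pass or not to pass did so with the deposited scaling. In 104 of the 110 probe sets the SD was larger in IP than in WB, with medians of 0.75 and 0.33, and over all probe sets this held for 87.7%. All 9 IP arrays lay above all 9 WB arrays for 4 transporter probe sets and below them for 19, against 5.22% and 10.3% of all probe sets. The contrast sets captured polyA RNA against whole brain total RNA. A lower IP signal therefore cannot be read as fewer cells of a type or as less RNA per cell.

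**Figure D1:**
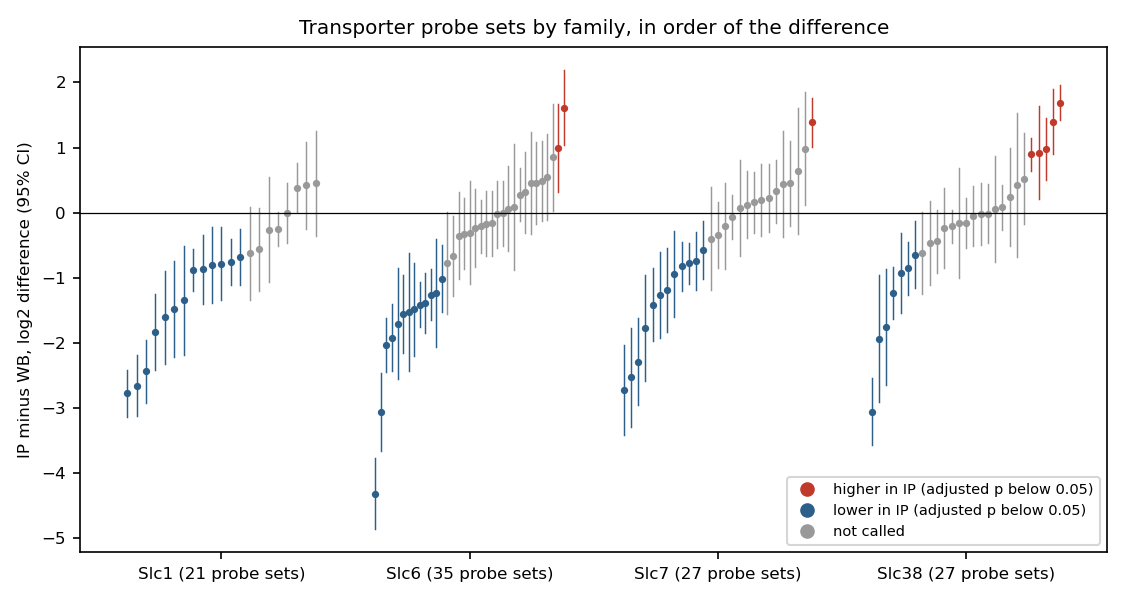
Difference between IP and WB (log2 of intensity + 16, y axis) with its 95% confidence interval for each of the 110 transporter probe sets, ordered within the 4 families (x axis), with colours for the call. The Slc1 family has 13 lower and 0 higher calls of 21, while Slc38 has 5 higher and 7 lower of 27.

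The families differed in these counts, but were not tested against each other. Over all probe sets 30.8% were lower and 14.2% higher. The lower share was 61.9% in Slc1, 37.1% in Slc6, 44.4% in Slc7 and 25.9% in Slc38. The higher share was 0%, 5.71%, 3.70% and 18.5%. In Slc1, 13 of 21 probe sets were lower and 0 higher, with a median of -0.78. In Slc6, 13 of 35 were lower and 2 higher, and in Slc7, 12 of 27 were lower and 1 higher. Slc38 had 7 lower and 5 higher of 27, with a median of -0.16. The Slc1 median over all probe sets stayed below 0 under the 4 scalings (-0.36 after median centring, where 2 were higher and 7 lower), although over the brightest probe sets of its 7 genes it was -0.26 as deposited and 0.16 after median centring. The medians of the other 3 families turned above 0 after quantile normalization and after median centring.

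Of the astrocytic glutamate transporters, Slc1a2 was lower on most of its probe sets and Slc1a3 on 3 of 6. Slc1a2 (GLT-1), the main glutamate carrier of forebrain astrocytes, had 4 of 5 probe sets lower. Its brightest (1459014_at) read 11.86, 12.41 and 13.16 in IP and 12.96, 13.25 and 13.58 in WB (lowest, median and highest log2 value of 9 arrays). The groups overlapped on that probe set at the highest IP array, and IP was 1.85-fold lower (-0.89, SE 0.16, adjusted p = 4.85e-05). Probe set 1451627_a_at read 9.01, 9.50 and 10.46 in IP and 12.10, 12.41 and 12.83 in WB, so that every IP array lay below every WB array, at 6.83-fold (-2.77, SE 0.17, adjusted p = 4.56e-12). The 2 other lower probe sets of Slc1a2 differed by -2.44 and -1.61, and 1433094_at showed no difference (0.00, 95% confidence interval -0.46 to 0.46). Slc1a3 (GLAST), the glutamate carrier prominent in cerebellar and other radial-type astrocytes, did not pass on its brightest probe set, with 10.72, 11.05 and 11.50 in IP and 10.99, 11.40 and 11.60 in WB (-0.25, SE 0.13, adjusted p = 0.115). Of its 5 other probe sets 3 were lower, the largest by 6.31-fold (1426341_at, -2.66, adjusted p = 8.16e-10), and 0 were higher. After median centring 1426340_at of Slc1a3 no longer passed (-0.26, adjusted p = 0.351) and 1443749_x_at was higher (0.84, adjusted p = 0.0441). The 4 lower calls of Slc1a2 were made under all 4 scalings.

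The glutamate transporters of neurons were lower as well. Slc1a1 (EAAC1), the general neuronal glutamate and cysteine carrier, was lower on all 3 of its probe sets, by -0.76, -0.80 and -0.78, the narrowest range among the 13 transporter genes with 3 or more probe sets. On the brightest, IP arrays read 9.96, 10.56 and 11.58 and WB arrays 11.23, 11.37 and 11.47. Thus 1 IP array exceeded the WB range and the others lay below it (adjusted p = 0.000881), and the call was lost with median centring (-0.33, adjusted p = 0.167). Slc1a6 (EAAT4), the carrier of cerebellar Purkinje cells, read 5.14, 7.85 and 8.70 in IP and 8.41, 8.61 and 8.98 in WB (-1.34, SE 0.41, adjusted p = 0.00882). It did not pass after median centring (-0.92, adjusted p = 0.0594), nor without the 4 IP arrays of highest mean intensity, an alternative chosen after seeing the data (-0.41, adjusted p = 0.0956).

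The remaining Slc1 members carry neutral amino acids or serve the retina. Slc1a4 (ASCT1), a serine and alanine exchanger, had a brightest probe set that did not pass (0.38, adjusted p = 0.0950) and 2 others that were lower, by -0.87 and -1.48. Slc1a5 (ASCT2) and Slc1a7, the retinal EAAT5, did not pass on any probe set and had group means between 6.08 and 7.07, close to the bacterial trpn control probe sets (up to 6.31).

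Among Slc6 members of inhibitory transmission, Slc6a5 (GLYT2), the glycine transporter of glycinergic terminals in brainstem and spinal cord, had the largest fall among the brightest probe sets of the neuronal list, on 1442177_at. This probe set read 6.97, 7.57 and 8.98 in IP and 9.34, 9.73 and 10.27 in WB, without overlap, at 3.78-fold (-1.92, SE 0.25, adjusted p = 8.64e-07). The other probe set, 1425992_at, nearly as bright, did not pass (-0.24, adjusted p = 0.532). Slc6a9 (GLYT1), the mainly astrocytic glycine transporter, read 9.11, 9.76 and 11.29 in IP and 9.89, 10.10 and 10.26 in WB and did not pass on either probe set (-0.17, 95% confidence interval -0.67 to 0.33 on the brightest). Without the same 4 IP arrays its difference was -0.50 and passed (adjusted p = 0.00582).

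Slc6a11 (GAT-3), the GABA transporter of astrocytes, gave opposite calls on its 2 probe sets. The brighter read 7.34, 8.02 and 9.84 in IP and 8.77, 9.33 and 9.59 in WB, with 1 IP array above every WB array (-1.01, SE 0.25, adjusted p = 0.00163). The dimmer, 1453871_at, was higher by 0.99 (SE 0.33, adjusted p = 0.0156), with 4.88, 5.87 and 8.02 in IP and 4.32, 5.02 and 5.53 in WB. Both of its group means lay below the highest trpn control mean, and the higher call was lost without the same 4 IP arrays (adjusted p = 0.0510). Slc6a12 (BGT1), a betaine and GABA carrier, did not pass, and Slc6a13 (GAT-2), a GABA carrier of the meninges, was lower by -1.48 (adjusted p = 0.00102).

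The monoamine transporters, which mark small groups of midbrain and hindbrain neurons, did not pass on their brightest probe sets. Slc6a3, the dopamine transporter, read 6.36, 8.46 and 9.25 in IP and 7.56, 8.20 and 8.53 in WB (0.06, 95% confidence interval -0.59 to 0.72). Slc6a4, the serotonin transporter, read 5.04, 7.27 and 7.88 in IP and 6.81, 7.42 and 7.72 in WB (-0.35, 95% confidence interval -1.02 to 0.31). Slc6a2, the noradrenaline transporter, read 7.32, 8.19 and 8.91 in IP and 7.51, 8.26 and 8.69 in WB (-0.16, 95% confidence interval -0.66 to 0.33). For all 3 the groups overlapped and the interval held differences of either sign, so these data do not show equal levels. Of the 3 dimmer probe sets of Slc6a2, 1 was lower (-1.52, adjusted p = 0.00625).

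The proline and neutral amino acid carriers of glutamatergic and other neurons were lower. Slc6a17 (NTT4), found on synaptic vesicles, read 9.67, 10.29 and 11.22 in IP and 11.67, 11.89 and 12.08 in WB, with every IP array below every WB array (-1.41, SE 0.17, adjusted p = 1.93e-07). A second probe set was lower by -2.03 and the third did not pass. Slc6a7 (PROT), the brain proline transporter, read 7.80, 9.74 and 10.69 in IP and 10.51, 10.86 and 11.84 in WB (-1.56, SE 0.29, adjusted p = 0.000103). Slc6a15 (B0AT2), a branched-chain amino acid carrier of neurons, had the widest IP range of these 3, at 6.22, 9.19 and 11.00 against 9.56, 9.95 and 10.11 in WB (-1.24, SE 0.40, adjusted p = 0.0142). Its call was lost with median centring (-0.81, adjusted p = 0.108).

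Slc6a6 and Slc6a8 carry taurine and creatine, organic osmolyte and energy buffer of many cell types. The 4 probe sets of Slc6a6 differed more than those of any other transporter gene. The brightest, 1437149_at, read 10.89, 11.94 and 13.66 in IP and 10.19, 10.50 and 10.86 in WB, so that every IP array was above every WB array, at 3.06-fold (1.61, SE 0.28, adjusted p = 4.06e-05). On 1421346_a_at the order was turned, with 4.52, 5.20 and 6.42 in IP and 9.15, 9.51 and 9.97 in WB, the largest fall of any transporter probe set (-4.32, SE 0.26, adjusted p = 2.89e-12). Its IP mean lay below the highest trpn control mean, so the size of the fold depends on the pseudocount. The same held for 8 other transporter probe sets, among them both of Slc7a11, 1426008_a_at of Slc7a2 and 1427295_at of Slc38a10. The remaining probe sets were lower, by -1.26 and -1.70. Slc6a8 was lower on both probe sets, by -1.39 and by -3.06, the latter with 5.45, 6.88 and 8.55 in IP and 9.72, 9.89 and 10.04 in WB (8.34-fold, adjusted p = 4.35e-09).

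The other Slc6 genes, Slc6a14, Slc6a16, Slc6a18, Slc6a19, Slc6a20a, Slc6a20b and Slc6a21, are carriers known mainly from epithelia, testis or barrier tissues, or are little studied. None of their probe sets passed as deposited, with differences from -0.77 to 0.85. After quantile normalization Slc6a16 (1.32, adjusted p = 0.00452), 1428595_at of Slc6a19 (0.87, adjusted p = 0.0264) and 1422899_at of Slc6a20b (0.61, adjusted p = 0.0204) were higher. These were also higher after median centring, as was 1420504_at of Slc6a14. When arrays were scaled to their hybridization controls, Slc6a18, Slc6a20a, Slc6a21, 1420503_at of Slc6a14 and 1422899_at of Slc6a20b were lower.

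In the Slc7 family, Slc7a11 (xCT), the cystine/glutamate exchanger of astrocytes, was lower on both probe sets. The brighter read 4.50, 6.43 and 8.15 in IP and 8.34, 8.61 and 9.45 in WB, without overlap (-2.53, SE 0.37, adjusted p = 3.73e-06), and the other differed by -2.29. Slc7a14, a member of the cationic subfamily found in neurons, was lower on both, the brighter with 9.24, 9.70 and 10.10 in IP and 10.13, 10.42 and 10.86 in WB (-0.78, SE 0.15, adjusted p = 0.000165), a call lost with median centring (-0.35, adjusted p = 0.0617). Slc7a3 (CAT3), a cationic amino acid transporter of neurons, did not pass, with 7.76, 8.31 and 9.82 in IP and 7.93, 8.37 and 8.75 in WB (0.22, 95% confidence interval -0.30 to 0.75). With median centring it was higher (0.65, adjusted p = 0.0396).

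Slc7a1 (CAT1), the widely expressed arginine and lysine carrier, was 2.62-fold higher on its brightest probe set, with 11.24, 11.84 and 12.86 in IP and 10.26, 10.56 and 10.93 in WB and no overlap (1.39, SE 0.18, adjusted p = 9.33e-07). Both of its other probe sets were lower, by -0.74 and -0.58, and neither passed after quantile normalization (adjusted p = 0.0905 and 0.462) or median centring (adjusted p = 0.249 and 0.600). When arrays were scaled to their hybridization controls the rises of Slc7a1 (0.45, adjusted p = 0.0989) and of Slc6a6 (0.67, adjusted p = 0.0559) did not pass. Slc7a2 (CAT2) was lower on 2 of 4, with 1426008_a_at at 4.62, 6.33 and 7.30 in IP and 8.22, 8.81 and 9.13 in WB (-2.72, SE 0.33, adjusted p = 3.35e-07), while its brightest did not pass (-0.35, adjusted p = 0.261). Slc7a4 was lower on 2 of 3 and Slc7a6 (y+LAT2) on 1 of 2, in each case not on the brightest. Slc7a10 (Asc-1), a D-serine and glycine exchanger described in both neurons and astrocytes, was lower by -0.94 (adjusted p = 0.0194), a call lost after quantile normalization, at adjusted p = 0.135, and after median centring, at 0.161. Slc7a5 (LAT1), the large neutral amino acid light chain of brain endothelium, and Slc7a8 (LAT2) did not pass, with differences of 0.16 and -0.07, and neither did Slc7a15 or the mainly epithelial and renal carriers Slc7a7, Slc7a9, Slc7a12 and Slc7a13.

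As deposited, Slc38 had more higher calls (5 of 27, where 14.2% of all probe sets were higher) than any other family. The larger Slc6 family had more after quantile normalization (7 of 35 against 6 of 27) and median centring (8 of 35 against 7 of 27). These were larger counts but not larger shares. Slc38a10, a widely expressed carrier of glutamine and related amino acids, had the largest rise of any transporter probe set on 1456241_a_at. All IP arrays (13.05, 13.73 and 14.13) exceeded all WB arrays (11.77, 12.00 and 12.41), at 3.22-fold (1.69, SE 0.13, adjusted p = 1.55e-10), and this was the 1 higher call made under all 4 scalings. Of its 6 other probe sets 2 were lower, among them 1427295_at with 4.45, 5.31 and 5.81 in IP and 7.86, 8.29 and 8.72 in WB (-3.06, SE 0.25, adjusted p = 3.71e-10). Slc38a6, a member described in excitatory neurons, was higher on both of its probe sets (1.40 and 0.92, adjusted p = 4.18e-05 and 0.0333). The brighter read 9.12, 9.61 and 10.83 in IP and 7.67, 8.51 and 8.73 in WB, without overlap. When arrays were scaled to their hybridization controls neither passed (0.45 and -0.025). Slc38a2 (SNAT2), the amino acid-regulated system A carrier, was higher by 0.90 on its brightest probe set (adjusted p = 1.87e-06), lower by -1.93 on another (adjusted p = 0.00155) and not changed past the threshold on the third. The higher call was lost under the hybridization control scaling (-0.05).

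The remaining Slc38 genes were mixed. Slc38a9, the lysosomal arginine sensor of mTORC1, had 1 probe set higher (0.98) and 3 lower (-0.86, -0.65 and -0.92) of 7. The rise did not pass under the hybridization control scaling (adjusted p = 0.920), nor the 3 falls after median centring (adjusted p = 0.0620, 0.488 and 0.150). Slc38a1 (SNAT1), the neuronal glutamine carrier, did not pass on its brightest probe set, which read 11.24, 11.84 and 12.10 in IP and 11.77, 12.01 and 12.15 in WB (-0.21, adjusted p = 0.169), but was lower by -1.23 on the other. The brightest is of the class _s_at, whose sequence can be shared between transcripts. Slc38a3 (SN1), the astrocytic glutamine exporter, read 7.61, 7.75 and 8.32 in IP and 7.26, 7.88 and 8.71 in WB and did not pass on either probe set (-0.02, 95% confidence interval -0.49 to 0.46 on the brighter). Slc38a4, Slc38a5 and Slc38a7 did not pass as deposited. After median centring 1428111_at of Slc38a4 (0.94, adjusted p = 0.0299) and Slc38a7 (0.51, adjusted p = 0.0124) were higher. The Slc38a4 probe set was also higher after quantile normalization (0.91, adjusted p = 0.0372). When arrays were scaled to their hybridization controls, 1448889_at of Slc38a4, Slc38a5 and Slc38a7 were lower.

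**Figure D2:**
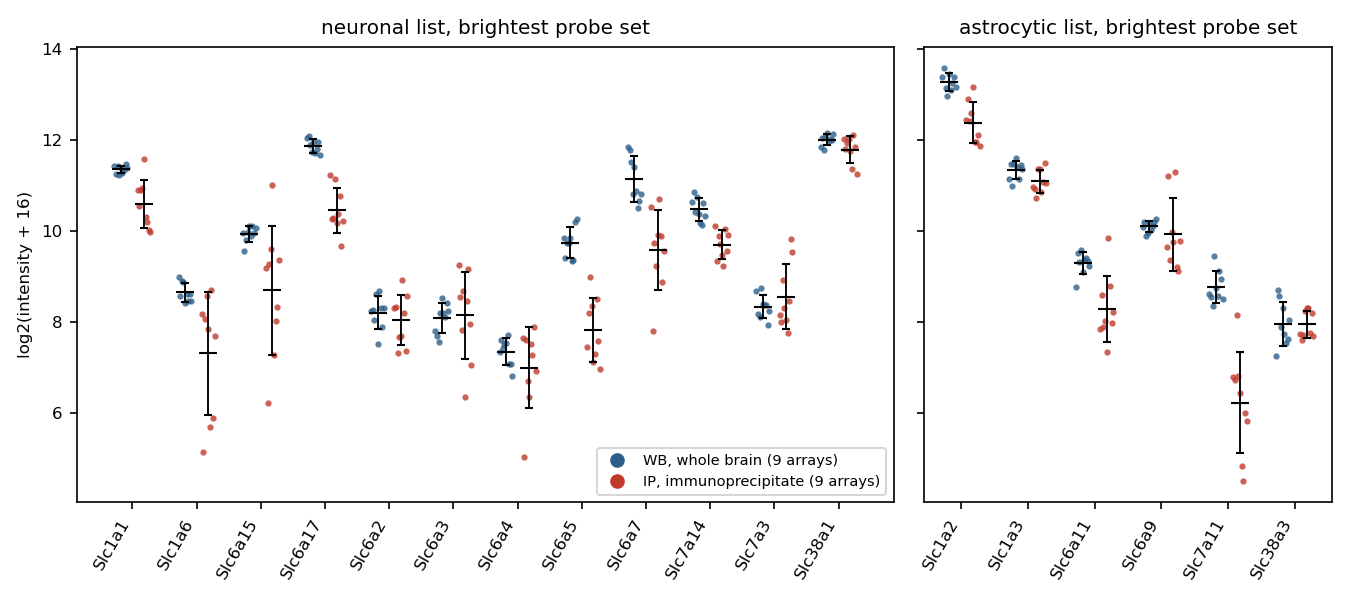
Values on each array (y axis, log2 of intensity + 16) of the brightest probe set of each gene of the neuronal and the astrocytic list (x axis), with the mean and SD of 9 arrays per group as bars. Slc6a17, Slc6a5, Slc7a14 and Slc7a11 have every IP array below every WB array, and the IP arrays of Slc1a6, Slc6a15 and Slc7a11 spread most.

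Neuronal and astrocytic transporters were compared on the brightest probe set of each gene. Of 12 measured neuronal genes (Slc1a1, Slc1a6, Slc6a2, Slc6a3, Slc6a4, Slc6a5, Slc6a7, Slc6a15, Slc6a17, Slc7a3, Slc7a14 and Slc38a1), 7 were lower and 0 higher, with a median of -0.77. Of 6 astrocytic genes (Slc1a2, Slc1a3, Slc6a9, Slc6a11, Slc7a11 and Slc38a3), 3 were lower and 0 higher, with a median of -0.57. Over the brightest probe sets of all 18193 genes 21.7% were lower and 21.7% higher, with a median of 0.00. Among the 33 transporters in neither list, 4 were lower and 5 higher, with a median of 0.09. That balance was not seen over all of their probe sets, where 22 of 69 were lower and 7 higher (median -0.16). Over all probe sets of the neuronal list 13 of 22 were lower and 0 higher (median -0.78). For the astrocytic list 10 of 19 were lower and 1 higher (median -0.68). Of all probe sets tested, 30.8% were lower and 14.2% higher. After quantile normalization 8 neuronal and 4 astrocytic genes were lower and 0 of either list higher, with medians of -0.81 and -0.58. With median centring 3 neuronal and 3 astrocytic genes were lower and 1 and 0 higher, with medians of -0.34 and -0.14. Without the 4 IP arrays of highest mean intensity 6 neuronal and 4 astrocytic genes were lower, with medians of -0.48 and -0.75, so that the order of the medians turned.

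The same lists were followed array by array as the median over genes relative to the WB mean. The neuronal median ranged from -1.34 to -0.25 over the IP arrays and from -0.05 to 0.09 over the WB arrays, without overlap. For the astrocytic list the ranges were -1.07 to -0.08 in IP and -0.17 to 0.18 in WB, and these overlapped. The neuronal median lay below the astrocytic one on 6 of 9 IP arrays and 5 of 9 WB arrays, so the lists did not separate from each other within the immunoprecipitate. Transporters in neither list ranged from -0.08 to 0.60 in IP and from -0.21 to 0.13 in WB.

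**Figure D3:**
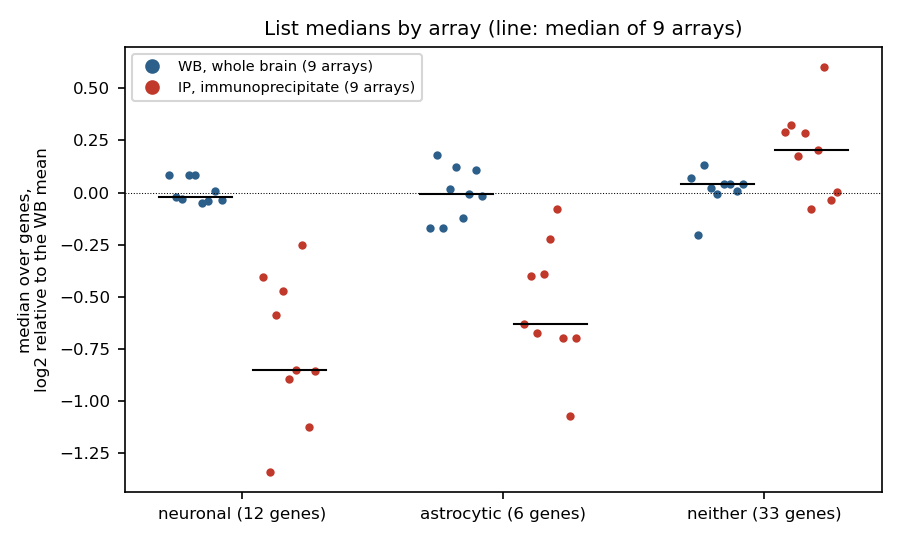
Median over the genes of each list on each array, as log2 relative to the mean of the WB arrays (y axis), for the neuronal, astrocytic and remaining transporters (x axis), with a line at the median of 9 arrays. IP medians are -0.85 for the neuronal, -0.63 for the astrocytic and 0.20 for the remaining genes.

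Probe sets of the same transporter gave opposite calls about as often as those of other genes. Of 30 transporter genes with 2 or more probe sets, 6 had both a higher and a lower call (Slc38a10, Slc38a2, Slc38a9, Slc6a6, Slc6a11 and Slc7a1), or 20.0%, and over all such genes this share was 22.0%. A further 14 had lower calls without a higher one, 1 (Slc38a6) had the reverse and 9 had no call. The distance between the largest and the smallest difference of a gene had a median of 1.67 over the transporters and 1.30 over all genes. For genes with 2 probe sets the order was turned (0.57 and 0.85). The distance reached 5.93 for Slc6a6, 4.74 for Slc38a10 and 3.08 for Slc1a3. The brightest probe set had a difference above the median of the others in 20 of the 30 genes, or 66.7%, against 68.2% of all genes. Taken as the mean over all probe sets of each gene, 20 of 51 transporters were lower and 1 (Slc38a6) was higher, against 29% and 12.5% of all genes. By that measure Slc6a6 and Slc38a10 were lower (-1.42 and -0.50) and Slc7a1 and Slc38a2 did not pass (0.02 and -0.35).

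**Figure D4:**
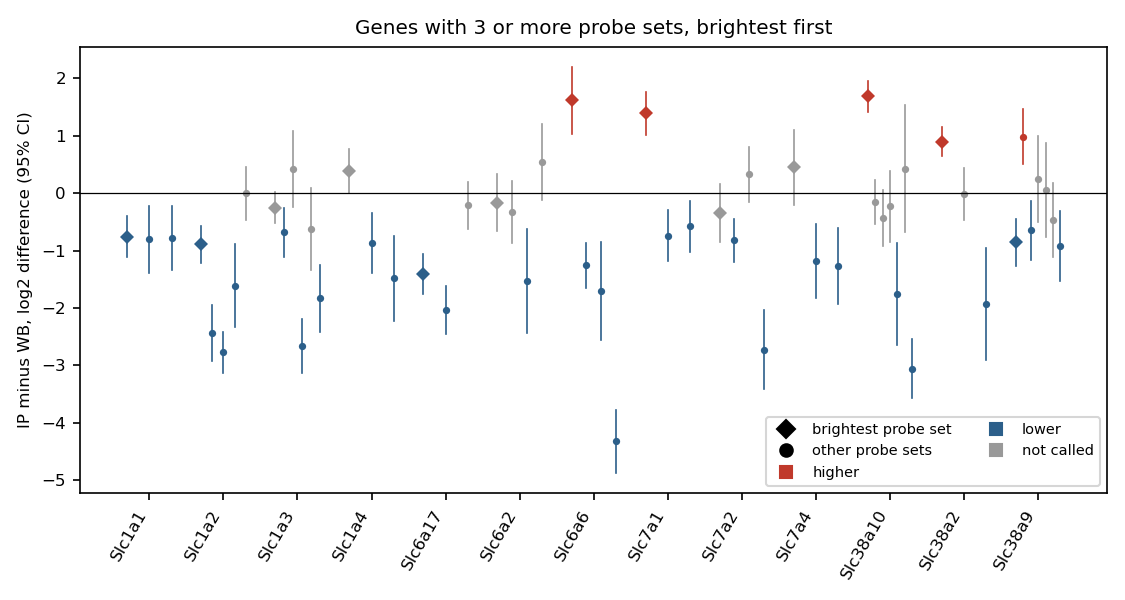
Difference between IP and WB (y axis, log2, with 95% confidence interval) for each probe set of the 13 transporter genes with 3 or more probe sets (x axis), brightest first and drawn as a diamond. The 3 probe sets of Slc1a1 lie between -0.80 and -0.76, whereas those of Slc6a6 run from 1.61 to -4.32.

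**Figure D5:**
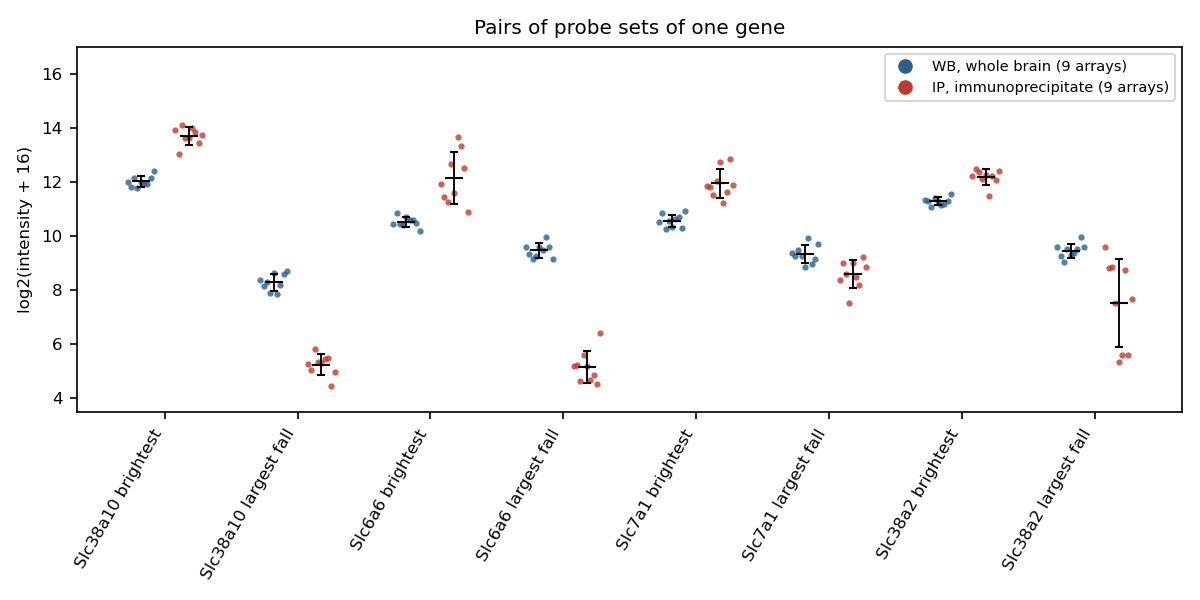
Values on each array (y axis, log2 of intensity + 16) of the brightest probe set and of the probe set with the largest fall for Slc38a10, Slc6a6, Slc7a1 and Slc38a2 (x axis), with mean and SD of 9 arrays per group. In Slc38a10 and Slc6a6 the IP arrays lie above all WB arrays on the first and below all of them on the second.

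Genes that work beside these transporters were read from the same fit, on the brightest probe set of each. Of 26 measured, 10 were higher and 10 lower, where 21.7% of all genes were higher and 21.7% lower. Slc3a1, the heavy chain that partners with Slc7a9, was 5.01-fold lower (adjusted p = 2.53e-08), while Slc3a2, the heavy chain of Slc7a5, Slc7a8 and Slc7a11, did not pass (-0.27). Of 6 vesicular transporters 3 were lower and 0 higher, with Slc32a1, which loads GABA and glycine, lower by -2.13 and Slc18a3, which loads acetylcholine, by -1.25. Of 8 enzymes of glutamate and GABA metabolism 6 were lower and 2 higher. Got1, a glutamate-forming aminotransferase, was 2.98-fold lower and Abat, which degrades GABA, 2.8-fold lower, on all of their probe sets. Gad1, which makes GABA, and Glul, the glutamine synthetase of astrocytes, were higher by 1.28 and 0.95, but each had 1 other probe set that was lower, and Glul turned lower with quantile normalization (-0.23).

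Of 6 genes known to be raised by amino acid shortage, 5 were higher and 0 lower, where 21.7% of all genes were higher: Phgdh (2.90) and Psat1 (0.67) of serine synthesis, Atf4 (2.20), the transcription factor of the response, Chac1 (0.87), a glutathione-degrading enzyme, and Asns (0.76), asparagine synthetase. Sesn2, a leucine sensor, did not pass (-0.13, adjusted p = 0.795), and Psat1 was lost after quantile normalization (0.20, adjusted p = 0.149). Atf4, Asns, Phgdh and Sesn2 each had another probe set that was lower, and under the hybridization control scaling 2 of the 6 were higher and 1 lower. Of the sodium pump that powers uptake, the beta subunits Atp1b2 and Atp1b1 were measured and higher, by 2.21 and 0.84, with 1 and 2 other probe sets lower, and Atp1b1 turned lower with quantile normalization (-0.31). Stx1a, a syntaxin that binds several Slc6 carriers, was higher by 2.53 on 1 of its 2 probe sets and lower on the other, and Cltrn, which partners with epithelial Slc6 carriers, did not pass (0.07).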

How the data were processed

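RNA of 9 IP and 9 WB samples was amplified from 5 ng and hybridised to arrays, per the labels' protocols. The authors deposited linear intensities from MAS5 (version not given in the sources used here), per the submitters' processing notes. From the values, the arrays shared a similar trimmed mean, and no detection calls were used. Here 16 was added and the log2 taken, so folds understate changes of dim probe sets. The 64 array controls were left out and 45037 probe sets were fitted with limma 3.58.1 (R 4.3.3, intensity trend), with Benjamini-Hochberg adjustment over all of them and calls at 0.05. The brightest probe set of a gene has the highest mean over the 18 arrays. All 113 probe sets matched a reference gene table by Entrez ID, and 0 were renamed. The fit was tested on simulated data.

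The members and gene lists were chosen with earlier results of these data known. Every member gene is named. Values by array are given for the brightest probe set of each neuronal and astrocytic gene, and for the 5 largest rises and 5 largest falls. Partner genes were named up to 2 per direction in each sublist, with Asns, Psat1, Chac1, Sesn2, Slc3a2 and Cltrn added after their values were seen. Alternatives were pseudocounts of 1 and 64, 3 other scalings, a brightness filter, no trend, array weights, a replicate block, leaving out single arrays, other probe set choices and, chosen after seeing the data, leaving out 4 IP arrays of mean intensity above 900. Groups were taken from the labels. The number of arrays limits the precision.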

Additional observations from a re-analysis of the deposited data

Results flagged for a closer look

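Of 62 sets of 9 arrays examined (the probe sets described array by array and the list medians, in each group), 1 had an array set apart from the rest: the median of the transporters in neither list was -0.21 on WB replicate 2, and the next lowest WB array was at -0.01. Chance marks about 1 in 20 such sets.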

How the results depend on the processing

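The transporter calls depended mainly on how arrays were scaled, which moved the median of all probe sets from -0.23 to 0.11 (quantile normalization), 0.20 (median centring) and -1.17 (hybridization controls). Of the 113 probe sets, 8 were higher and 47 lower with the deposited scaling, 17 were higher with quantile normalization, 24 higher and 31 lower with median centring, and 1 higher and 84 lower with the hybridization controls. With that last scaling 11 neuronal and 6 astrocytic genes were lower, with medians of -1.71 and -1.51, and 4 partner genes were higher. With median centring 3 neuronal genes were lower and 1 higher, the medians were -0.34 (neuronal) and -0.14 (astrocytic), and 6 partner genes were lower. The cause was not tested. Differences that had not passed changed sign for Slc6a2 (0.23), Slc6a4 (0.12) and Slc38a3 (0.40) with quantile normalization, for Slc1a3 (0.17), Slc6a2 (0.26), Slc6a4 (0.071), Slc6a9 (0.25), Slc38a1 (0.21) and Slc38a3 (0.41) with median centring, for Slc6a3 (-0.88) and Slc7a3 (-0.72) with the hybridization controls, and for Slc38a3 (0.026) with array weights. Quantile normalization moved the brightest probe sets of Slc1a3 (-0.49, limma adjusted p = 0.00106) and Slc38a1 (-0.68, adjusted p = 2.09e-05) the other way, so that both passed as lower. Leaving out 1 array in turn gave 7 to 10 higher and 45 to 48 lower probe sets, and moved Slc38a3 from -0.10 to 0.077 and Slc6a3 from -0.076 to 0.28, across 0. Deviations of IP and WB arrays with the same replicate number correlated at -0.05 to 0.08, best with its own number for 2 of 9. Such low correlations between variable arrays cannot show whether the samples were paired. The replicate block gave 10 higher and 45 lower. Pseudocounts, the brightness filter, the intensity trend, array weights and probe set classes kept these counts within 1.5 times. The neuronal list without Slc38a1 also had 7 lower, a count fixed in advance because the brightest probe set of Slc38a1 did not pass. Dim probe sets near the trpn controls limit what can be read for 10 transporter probe sets with both group means below them and the fold sizes of 9 with the IP mean below them.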

Other observations

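Slc7a6os, a gene on the strand opposite Slc7a6, was lower on both of its probe sets, by -0.94 (adjusted p = 0.0210) and -1.68 (adjusted p = 0.000497), while the brighter probe set of Slc7a6 did not pass (0.20) and its other was lower by -1.78. Slc6a19os did not pass (0.25).

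The 9 IP arrays were not alike for Slc1a6. On IP replicates 2, 6 and 8 it read 5.14, 5.70 and 5.89, below every other IP array (7.69 to 8.70). These replicates are among the 4 IP arrays of mean intensity above 900 (994, 937 and 924). A wide IP spread was not particular to Slc1a6. Its SD was 1.35, against 1.64 for 1429593_at of Slc38a2 and 1.41 for Slc6a15.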
